A study of Rattus norvegicus with 19 samples.

Results

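A group of 30 transcripts, out of 29107 in the table, was high in sorted mast cells of both hippocampus and hypothalamus of newborn rats and much lower in those of bone marrow and skin. Members were chosen by their group means at postnatal day 2 (PN2), as CPM, the estimated count scaled to a library total of 1000000. Each had at least 10 CPM in both brain regions and at least 5 times the higher of the bone marrow and skin means in both. The hypothalamus mean also lay between 0.25 and 4 times the hippocampus mean. These PN2 values made the choice, so comparisons among the PN2 groups are given as a description without a test. The libraries of postnatal day 7 (PN7) took no part in it. Tests of PN7 against a PN2 group use libraries on 1 side that the choice used. Only hippocampus against hypothalamus at PN7 uses none of them. The choice still rested on 4 hippocampus and 2 hypothalamus libraries of PN2, so that comparison is not wholly free of the rule. Because 2 of the members held identical values in every library, the 30 transcripts gave 29 distinct profiles.

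All rats were wild type, and pups were perfused with phosphate-buffered saline before tissue was taken. A Percoll gradient was used to enrich immune cells. The sort then kept live singlets that were high for CD45, negative for CD11b and positive for FcεRI, and took 1000 to 10000 of them per library. Each library is a pool from 6 animals, described by the submitters as an independent biological replicate, so p-values measure the spread between pools. The groups were bone marrow at PN2 (4 libraries), skin at PN2 (5), hippocampus at PN2 (4), hypothalamus at PN2 (2), hippocampus at PN7 (3) and hypothalamus at PN7 (1). The labels name neither strain nor sex. They state 3 to 5 replicates per condition, whereas hypothalamus has 2 libraries at PN2 and 1 at PN7 here.

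Mast cells are tissue-resident immune cells that bind IgE through the high-affinity receptor FcεRI and release stored granule contents, such as histamine and proteases, when activated. They arise from blood-forming precursors and mature in the tissue they settle in. In the brain they lie mostly in the meninges and along blood vessels, and the area around the hippocampus is a known site in young rodents. Basophils carry FcεRI as well.

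The rows carry Ensembl transcript identifiers without gene names, and the gene table at hand, with 47357 genes, holds an Ensembl identifier for 0 of them. None of the members could be matched to a gene, a function or a sequence (0 of 30). Marker genes of mast cells, basophils or brain cells could not be read either, so the identity of the sorted cells was not checked, and the part of other cells in the levels below was not tested. In such bulk samples, more cells of a type and more RNA per cell cannot be told apart.

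Library totals (estimated counts) were 16196856 to 22563833 for bone marrow, 11704985 to 26394623 for skin, and 19935250 to 22967152 for the PN2 hippocampus. They were lower at PN7 in hippocampus, at 10329777 to 12870442, and in the hypothalamus library of PN7, at 9792422. The hypothalamus libraries of PN2 were the smallest, and they stood apart from each other: replicate 1 had counts for 16231 transcripts and replicate 2 for 13403, with 6.90% and 16.6% of the counts on the top transcript. Skin replicates 4 and 5 also lay apart from the other 3 skin libraries. Of 13948 transcripts with a skin mean of at least 1 CPM, 31.2% were higher in both than in each of the others, and 15.7% were lower in both.

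At PN2 the members made up a small share of the RNA in brain mast cells and a far smaller one outside the brain. Their summed level in hippocampus was 2218 ± 330 CPM (SD, n = 4) and in hypothalamus 2391 ± 186 CPM (SD, n = 2). Bone marrow summed to 117 ± 36.7 CPM (SD, n = 4), and skin to 152 ± 75.4 CPM (SD, n = 5). The median member had group means of 26.6 CPM (hippocampus), 32.1 CPM (hypothalamus), 1.76 CPM (bone marrow) and 2.36 CPM (skin). Over the 24309 transcripts with any count, the corresponding medians were 2.43, 3.00, 2.80 and 2.56 CPM, so the members stood above the typical transcript in brain and near it outside. The sum was uneven among members: the top 5 held 67.9% of it in hippocampus and 61.7% in hypothalamus.

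**Figure D1:**
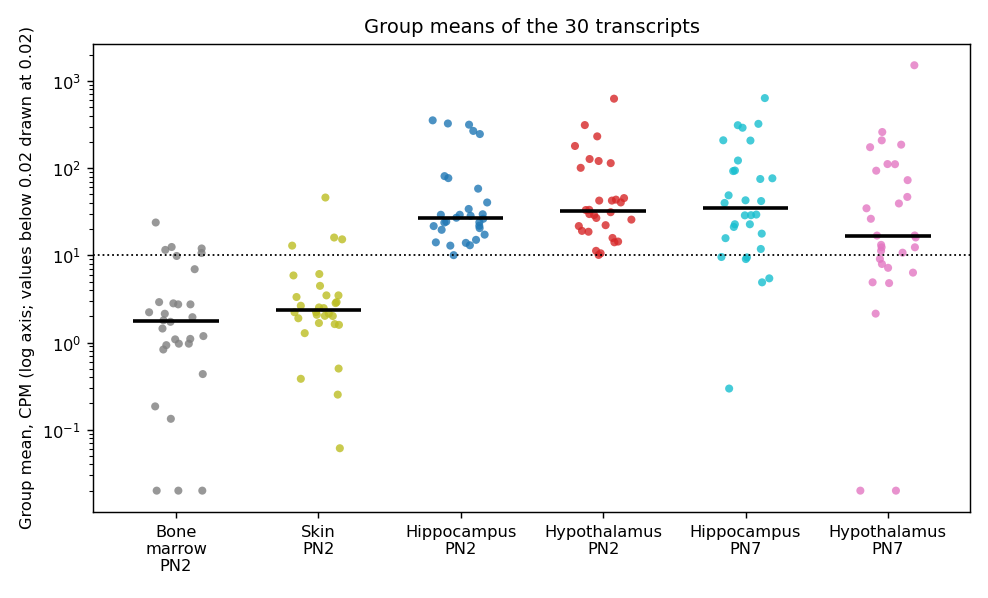
Group means of the 30 transcripts in CPM (log axis) in the 6 groups; each point is a transcript, the bar is the median over the transcripts, and the dotted line marks 10 CPM. The PN2 groups on the brain side lie above 10 CPM by choice, whereas the PN7 groups, which took no part in the choice, reach below it, with medians of 34.6 CPM in hippocampus and 16.4 CPM in hypothalamus.

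The member with the highest level in brain was ENSRNOT00000090420.1. Its hippocampus libraries of PN2 held 316, 287, 352 and 345 CPM and the hypothalamus libraries 763 and 488 CPM. In bone marrow it stood at 8.28, 17, 13.6 and 0.414 CPM and in skin at 4.27, 6.07, 10.6, 4.18 and 5.42 CPM. Every brain library was thus far above every outside library, and hypothalamus was above hippocampus in both of its libraries. At PN7 the direction between the regions was the same and the gap was wider, with 185, 211 and 226 CPM in hippocampus and 1513 CPM in the hypothalamus library.

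ENSRNOT00000004280.5, the next in level, varied much more between pools. It held 91.5, 380, 253 and 689 CPM in hippocampus at PN2, and 148 and 475 CPM in hypothalamus. Bone marrow held 1.91, 9.93, 7.24 and 28.9 CPM, and skin 3.33, 8.77, 4.46, 0 and 0.0634 CPM. The hippocampus libraries differed by a factor of 7.53 from lowest to highest, and the regions overlapped. At PN7 the hippocampus libraries were closer together, at 586, 592 and 728 CPM, and the hypothalamus library held 259 CPM.

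Most members were steadier over the hippocampus pools of PN2. The ratio of the highest to the lowest library had a median of 1.59, and it was under 2 for 21 of the 30. ENSRNOT00000090809.1 had the lowest ratio, 1.09, with 29.1, 31.1, 28.5 and 29.7 CPM. Replicate 4 was the highest of the hippocampus libraries for 16 members, and replicates 1, 2 and 3 for 2, 6 and 6. The share over all transcripts was not taken, and these libraries made the choice, so this is not read as particular to the members. At the other end, ENSRNOT00000071795.1 held 0, 38.4, 1.78 and 0 CPM, so that replicate 2 alone carried its hippocampus mean.

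**Figure D2:**
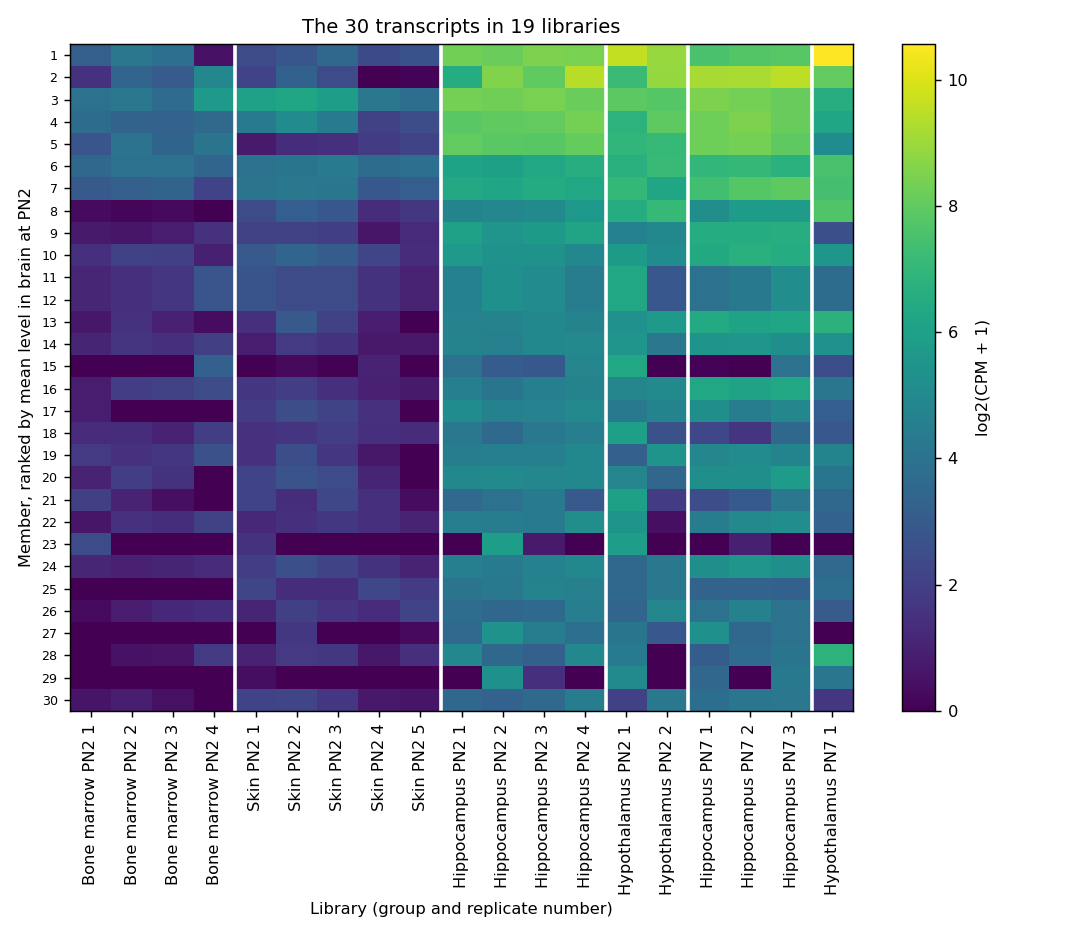
Level of each of the 30 transcripts, as log2(CPM + 1), in the 19 libraries; rows are ranked by the mean of the hippocampus and hypothalamus means of PN2, and white lines separate the groups. Most rows are bright in all hippocampus libraries, whereas a set of rows is bright in hypothalamus PN2 replicate 1 and dark in replicate 2.

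Counts outside the brain were low for most members but not absent, so the label of transcripts found in brain only goes further than the data. Between 3 and 5 members had at least 10 CPM in each bone marrow library, and between 2 and 5 in each skin library. None of the members lacked counts in bone marrow and skin altogether (0 of 30). In bone marrow, 3 had 0 counts in every library (ENSRNOT00000031762.1, ENSRNOT00000086710.1 and ENSRNOT00000071795.1, named after their values were seen). Set against 3 counts over the whole bone marrow group, or 0.0372 CPM, the first and the second were at least 551-fold and 586-fold higher in hippocampus at PN2. No fold is given for ENSRNOT00000071795.1, whose hippocampus mean rests on replicate 2. All 3 had counts in skin, where ENSRNOT00000031762.1 held 3.67, 1.58, 1.64, 3.72 and 2.58 CPM. The libraries were amplified by PCR without molecular identifiers, so such floors cover counting error only.

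Separation from the outside tissues held library by library for most members. In 23 of the 30, every brain library of PN2 was above every bone marrow and skin library, as was the case for 1.14% of the 20521 transcripts tested; the choice of members largely fixes this count. In 4 of them the lowest brain library was at least 5 times the highest outside library. These were ENSRNOT00000090420.1, ENSRNOT00000017339.7, ENSRNOT00000020656.5 and ENSRNOT00000027232.6, named after their values were seen. ENSRNOT00000027232.6, for example, held 25.3, 23.3, 29.1 and 30.2 CPM in hippocampus and 44.9 and 17.5 CPM in hypothalamus, and its highest outside value was 3.01 CPM, in bone marrow replicate 4.

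The hypothalamus side of the choice rested on fewer libraries than the hippocampus side. Both hypothalamus libraries of PN2 had at least 10 CPM and 5 times the higher outside mean for 13 members. For 12 members only replicate 1 did, and for 5 only replicate 2. Replicate 1 was at least 4 times replicate 2 for 9 members, and the reverse was true for 2, ENSRNOT00000024974.6 and ENSRNOT00000010850.2 (named after their values were seen). Of all 8129 transcripts with at least 10 CPM in both brain regions, 5.83% had replicate 1 at least 4 times replicate 2, against 30% of the members. The choice used the mean of these same libraries, which 1 high library can carry, so the share among the members is not independent of it. The 9 include the 2 members with identical values. Without replicate 1 the rule chose 22 transcripts, 18 of them among the 30, and without replicate 2 it chose 30, of which 23 were among the 30.

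**Figure D3:**
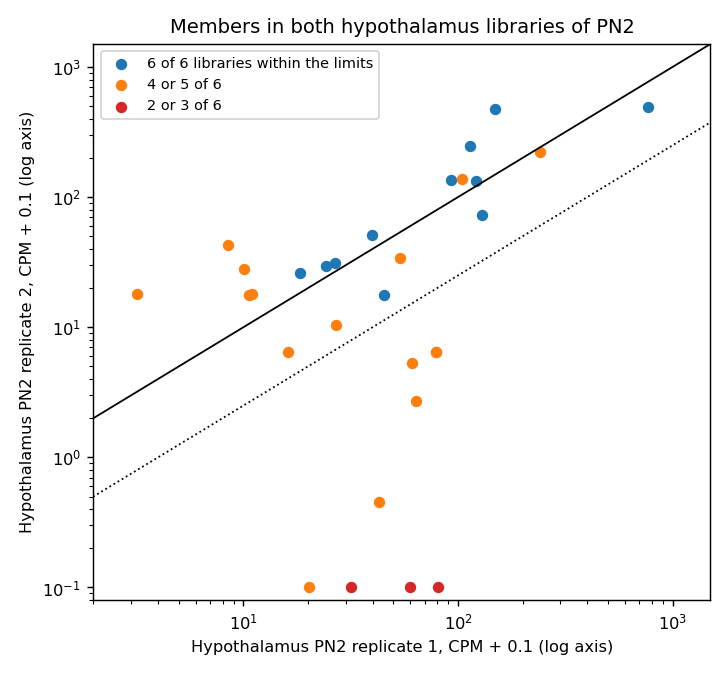
Level of each of the 30 transcripts in hypothalamus PN2 replicate 1 (horizontal) and replicate 2 (vertical), in CPM + 0.1 on log axes; the solid line marks equal levels, the dotted line a level 4 times as high in replicate 1, and colours give how many of the 6 brain libraries of PN2 met both limits. The 11 transcripts that met the limits in all 6 libraries have replicate 1 between 0.311 and 2.57 times replicate 2, and 4 transcripts sit at the bottom with 0 counts in replicate 2.

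Counted over all 6 brain libraries of PN2, 11 members met both limits in each library, 11 in 5 and 5 in 4. The other 3 met them in 3 or fewer libraries. These were ENSRNOT00000013105.7, ENSRNOT00000083183.1 and ENSRNOT00000071795.1, named after their values were seen. ENSRNOT00000083183.1 held 59.5 CPM in hippocampus replicate 2 and 59.4 CPM in hypothalamus replicate 1, and at most 0.714 CPM in the other 4 brain libraries of PN2. ENSRNOT00000071795.1 was high in the same 2 libraries, at 38.4 and 31.6 CPM. ENSRNOT00000013105.7 held 80.8 CPM in hypothalamus replicate 1 and 0 in replicate 2. For these 3 the group means come from 1 or a few pools.

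Members beside the fold limit were close in ratio to transcripts just below it, which is how they were picked, but were higher in level. Just inside was ENSRNOT00000082592.1, whose lower brain mean was 5.03 times the higher outside mean, with 315 CPM in hippocampus and 231 CPM in hypothalamus. ENSRNOT00000009563.2 was also just inside, at 5.04 times, with 76.8 and 121 CPM. Just outside were ENSRNOT00000044348.2, at 4.83 times, with 37.2 CPM in hippocampus and 27.6 CPM in hypothalamus, and ENSRNOT00000090813.1, at 4.75 times, with 38.1 and 21.2 CPM. ENSRNOT00000082592.1 was abundant outside the brain as well, with 46.0 ± 28.4 CPM in skin (SD, n = 5) beside a hippocampus mean of 315 ± 28.1 CPM (SD, n = 4). Its skin libraries held 66.0, 74.2, 58.9, 17.7 and 13.2 CPM, and replicates 4 and 5 were the low ones.

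The same skin libraries were low for many members. Skin replicates 4 and 5 were both below each of the other 3 for 19 of the 30 members and both above them for 1. Over the 13948 transcripts with a skin mean of at least 1 CPM, these shares were 15.7% and 31.2%. The choice took members with a low skin mean, so the count is not independent of it. The summed level of the members was 76.2 and 69.6 CPM in these 2 libraries and 184, 239 and 193 CPM in skin replicates 1, 2 and 3. The rule uses the skin mean: without skin replicate 4 it chose 26 transcripts, and without skin replicate 5 also 26, all among the 30 in both cases. Without all libraries numbered 4 and 5, which also leaves out replicate 4 of bone marrow and of hippocampus at PN2, it chose 24, of which 22 were among the 30. The skin mean was above the bone marrow mean for 21 members and below it for 9.

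At PN7, which the rule did not use, most members were still far above the outside tissues in hippocampus, and fewer were in hypothalamus. Both limits, at least 10 CPM and at least 5 times the higher outside mean, were met at PN7 by 24 of the 30 in hippocampus, where 0.721% of the 20521 transcripts tested met them. In the hypothalamus library of PN7 they were met by 14 of the 30, against 3.49% of all. Both regions met them for 12 members, hippocampus alone for 12, hypothalamus alone for 2 and neither for 4. No outside tissue was sampled at PN7, so the outside means are those of PN2, and they were low by choice. The choice rested on 4 hippocampus and 2 hypothalamus libraries. The difference between the regions in these counts is therefore not independent of the choice.

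**Figure D4:**
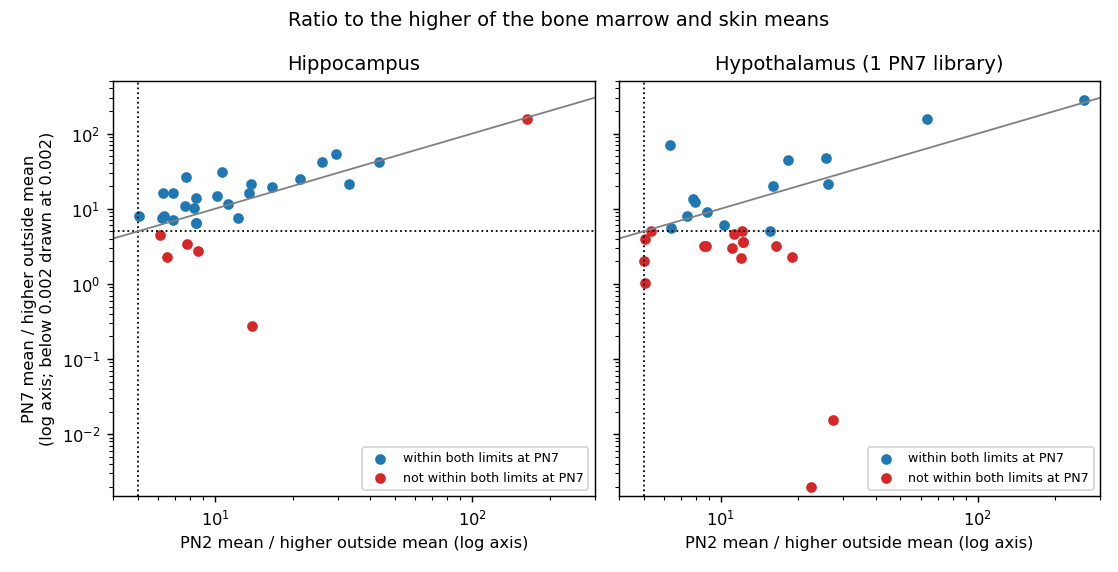
Ratio of the brain mean to the higher of the bone marrow and skin means for each of the 30 transcripts, at PN2 (horizontal) and PN7 (vertical), on log axes, in hippocampus (left) and hypothalamus (right); dotted lines mark 5 times and the grey line equal ratios. In hippocampus 24 transcripts met both limits at PN7, whereas in the hypothalamus library 14 did.

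Members that met the limits in every brain library of PN2 are given apart from the others here, as counts without a test. All 11 of them did so in hippocampus at PN7, and 7 of the 11 in the hypothalamus library. Of the 19 others, 13 did so in hippocampus and 7 in hypothalamus. The 4 that met them in neither region, named after their values were seen, were ENSRNOT00000013105.7, ENSRNOT00000014404.3, ENSRNOT00000083183.1 and ENSRNOT00000031762.1. ENSRNOT00000031762.1 held 9.40, 9.17 and 8.62 CPM in hippocampus, 3.43 times the higher outside mean, and 13.2 CPM in hypothalamus, 4.99 times that mean. The 2 that met them in hypothalamus alone were ENSRNOT00000079819.1, at 10.7 CPM, and ENSRNOT00000071795.1, at 16.9 CPM. Their hippocampus means at PN7 were 9.56 CPM, 4.47 times the higher outside mean, and 9.47 CPM. Both were just short of 10 CPM.

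Transcripts that met the limits in 1 brain region only at PN2 give a scale for these counts, side by side and without a test. Of 56 that met them in hippocampus but not in hypothalamus, 18 met them again in hippocampus at PN7 and 3 in both regions. Of 233 that met them in hypothalamus but not in hippocampus, 165 met them again in the hypothalamus library of PN7 and 19 in both regions. For the 30 members these counts were 24 in hippocampus, 14 in hypothalamus and 12 in both.

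Hippocampal mast cells of PN7 were also tested against skin and bone marrow of PN2, in a fit of all transcripts with edgeR's quasi-likelihood test. Against skin, 25 of the 30 members were higher and 0 lower at an adjusted p below 0.05, beside 6.88% of all tested transcripts higher and 7.27% lower. None was lower at an unadjusted p under 0.05, nor with DESeq2 or limma voom (0 in each). Against bone marrow, 28 were higher and 0 lower, beside 18.0% of all higher and 18.1% lower. Here too 0 were lower at an unadjusted p under 0.05, with DESeq2 and with limma voom. Skin and bone marrow values were part of the choice, and both comparisons share the PN7 libraries, so the counts are not independent of the rule or of each other. Both tissues were low by choice, which leaves little room for members to be lower at PN7. No share over all transcripts was taken for the unadjusted, DESeq2 and limma voom counts, so they are not read as further evidence. Every hippocampus library of PN7 was above every skin library for 26 members (13.7% of all) and above every bone marrow library for 27 (19% of all). For 26 members they were above every library of both tissues (8.12% of all). For 0 members were they below every skin library (14.2% of all) or every bone marrow library (26.9% of all).

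Among members called higher than skin with at least 10 CPM on average and no overlap, the largest fitted rises were those of ENSRNOT00000004280.5 and ENSRNOT00000017339.7. The first averaged 636 ± 80.3 CPM (SD, n = 3) in the PN7 hippocampus against a skin mean of 3.32 ± 3.63 CPM (SD, n = 5), and its log2 fold change was 7.56 ± 1.16 (SE; edgeR adjusted p = 4.071e-04). ENSRNOT00000017339.7 averaged 291 ± 41.1 CPM (SD, n = 3) and 2.02 ± 1.06 CPM (SD, n = 5), and its log2 fold change was 7.15 ± 0.36 (SE; edgeR adjusted p = 7.62e-09). Both were higher in every hippocampus library of PN7 than in any skin library. The skin libraries were low by choice, so these fold changes and p-values are not free of the rule. They were of PN2, so age and tissue cannot be told apart here.

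Over bone marrow, the named rises were those of ENSRNOT00000086710.1 and ENSRNOT00000031157.3. ENSRNOT00000086710.1 held 38.0, 10.9 and 14.6 CPM in hippocampus at PN7 and 0 counts in all bone marrow libraries, which makes it at least 568-fold higher (edgeR adjusted p = 4.96e-04). ENSRNOT00000031157.3 held 36.4, 55.4 and 54.5 CPM against 0.247, 0.0960, 0.190 and 0 CPM, a log2 fold change of 8.67 ± 0.69 (SE; edgeR adjusted p = 7.691e-08). It was less restricted against skin, where it held 4.53, 7.83, 6.21, 1.52 and 2.24 CPM. The bone marrow libraries were low by choice and of PN2 as well, so the same limits hold for these tests.

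A few members were not called higher. Against skin these were ENSRNOT00000013105.7, ENSRNOT00000014404.3, ENSRNOT00000079819.1, ENSRNOT00000083183.1 and ENSRNOT00000071795.1, and against bone marrow ENSRNOT00000013105.7 and ENSRNOT00000083183.1 (named after their values were seen). ENSRNOT00000083183.1 held 0, 0.889 and 0 CPM in hippocampus at PN7, so the level of its PN2 replicate 2 was not seen again in these 3 pools. ENSRNOT00000013105.7 held 0.0777, 0 and 14.6 CPM.

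The regions were compared at PN7 in libraries that took no part in the choice. In hippocampus every library was above the hypothalamus library for 17 members, beside 24% of all transcripts, and every library was below it for 6, beside 40.9% of all. The median fitted log2 fold change, hippocampus over hypothalamus, was 1.14 over the members and 0.00 over all transcripts tested. The library scaling assumes that most transcripts do not differ, so the 0.00 is not a measured background. In edgeR's test 2 members were higher in hippocampus (3.84% of all transcripts were) and 0 lower (3.74% of all). At an unadjusted p under 0.05 there were 7 higher and 3 lower. DESeq2 called 5 higher and 1 lower, and limma voom 6 and 3. No share over all transcripts was taken for the unadjusted, DESeq2 and limma voom counts, so they are not read as an excess. With 1 hypothalamus library, the test assumes that it varies like the other groups. The choice used 4 hippocampus and 2 hypothalamus libraries of PN2. Of the members, 12 met the hypothalamus limits in replicate 1 only and 5 in replicate 2 only. The direction over the members is therefore not independent of the choice.

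The members called were ENSRNOT00000020656.5 and ENSRNOT00000017339.7. ENSRNOT00000020656.5 held 91.8, 90.8 and 94.9 CPM in hippocampus at PN7 and 4.90 CPM in hypothalamus, a log2 fold change of 4.44 ± 0.85 (SE; edgeR adjusted p = 0.004599). At PN2 it had held 65.5, 44.4, 52.5 and 70.2 CPM in hippocampus and 24.2 and 29.4 CPM in hypothalamus, already without overlap. ENSRNOT00000017339.7 held 298, 327 and 246 CPM at PN7 against 34.6 CPM, a log2 fold change of 3.28 ± 0.59 (SE; edgeR adjusted p = 0.00322). Its PN2 levels were 259, 229, 228 and 268 CPM in hippocampus and 122 and 133 CPM in hypothalamus. Both stayed far above bone marrow in hippocampus, whereas in the hypothalamus library their ratios to the higher outside mean were 2.19 and 3.00. Both calls were kept in all 13 alternative fits of this comparison, with log2 fold changes from 4.33 to 4.98 and from 3.05 to 3.39. All 13 fits used the same hypothalamus library, so they cannot show how far the calls depend on it.

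In the hypothalamus library of PN7 the summed level of the members was 3028 CPM, beside a hippocampus mean of 2846 ± 102 CPM (SD, n = 3). The 5 members ranked highest in brain at PN2 held 65.2% of the sum in that library and 62.1% in hippocampus at PN7. The highest member in hippocampus at PN7 was ENSRNOT00000004280.5, with a mean of 636 CPM. ENSRNOT00000090420.1 alone made up 50.0% of the sum in the hypothalamus library and 7.28% in hippocampus at PN7. Without it the sums were 1515 CPM in hypothalamus and for hippocampus 2638 ± 81.2 CPM (SD, n = 3). That member differed by -2.66 ± 0.84 on the log2 scale, hippocampus over hypothalamus (SE; edgeR adjusted p = 0.06449), and did not pass the test. ENSRNOT00000031157.3 went the same way, with 208 CPM in the hypothalamus library, and did not pass either (log2 fold change -1.89 ± 0.65, SE; edgeR adjusted p = 0.09242). ENSRNOT00000086710.1 had 0 counts in that library, which allows up to 0.306 CPM.

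Age was compared within hippocampus, where PN2 values were part of the choice and were high by it, which favours falls. In every PN7 library 9 members were above every PN2 library, beside 14.9% of all transcripts, and 3 were below every one, beside 13.6% of all. The median fitted log2 fold change from PN2 to PN7 was 0.20 over the members and 0.00 over all transcripts, the latter again set by the scaling. In edgeR's test 2 members rose (3.43% of all did) and 0 fell (5.51% of all). At an unadjusted p under 0.05 there were 4 higher and 2 lower. DESeq2 called 3 higher and 2 lower, and limma voom 9 and 3. For the unadjusted, DESeq2 and limma voom counts no share over all transcripts was taken, so they are not read as an excess. Depth moves with age: all hippocampus totals of PN7 lay below those of PN2. With all libraries thinned to the smallest total, 2 were higher and 1 lower.

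The members that rose were ENSRNOT00000019222.3 and ENSRNOT00000082600.1. ENSRNOT00000019222.3 held 22.3, 16.4, 22.7 and 25.1 CPM at PN2 and 79.4, 66.5 and 79.3 CPM at PN7, a log2 fold change of 1.75 ± 0.42 (SE; edgeR adjusted p = 0.01426). Its hypothalamus values were 26.8 and 31.2 CPM at PN2 and 16.8 CPM at PN7. This call was kept in all 17 alternative fits, with adjusted p of at most 0.04812. ENSRNOT00000082600.1 held 81.0, 76.1, 88.3 and 78.4 CPM at PN2 and 165, 217 and 243 CPM at PN7, a log2 fold change of 1.31 ± 0.36 (SE; edgeR adjusted p = 0.03152). Leaving out any 1 of the 4 PN2 libraries, or PN7 replicate 2 or 3, ended its call, with adjusted p from edgeR between 0.06022 and 0.1005.

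**Figure D5:**
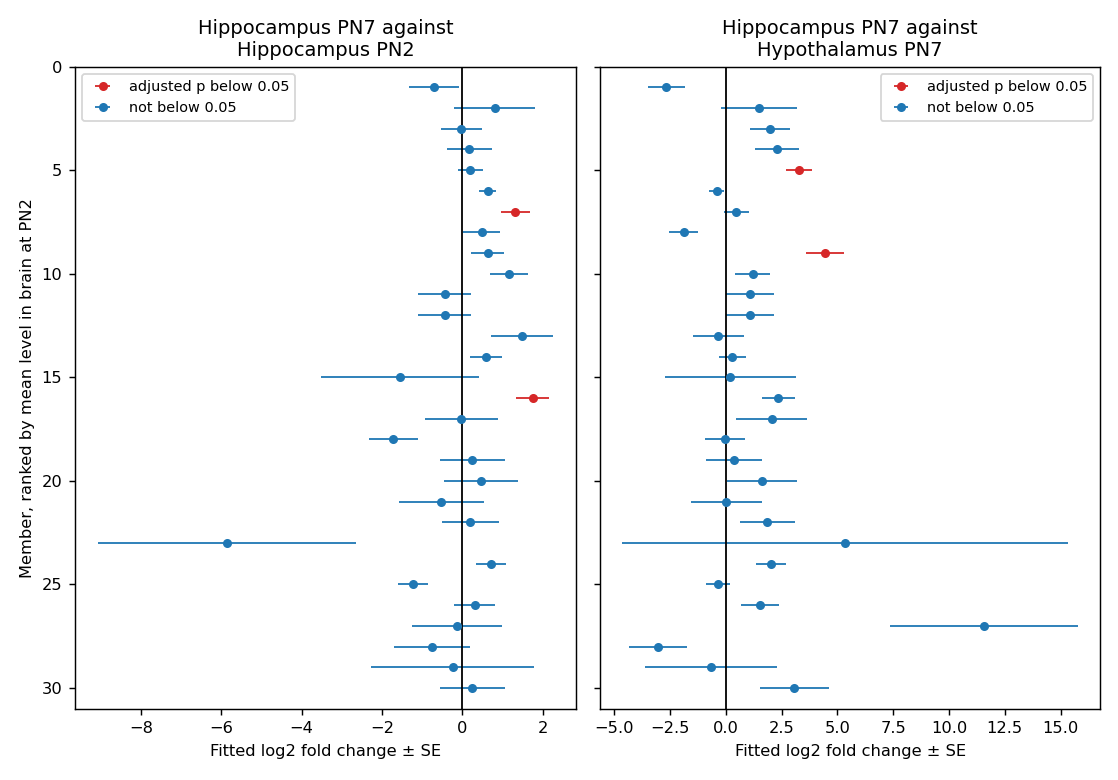
Fitted log2 fold change with its standard error for each of the 30 transcripts, ranked by level in brain at PN2, for hippocampus PN7 against PN2 (left) and hippocampus against hypothalamus at PN7 (right); red marks an adjusted p below 0.05 in edgeR's test. In each comparison 2 transcripts passed, all of them positive, and the widest bar in both is that of ENSRNOT00000083183.1, which is near 0 in the PN7 libraries; the fitted sizes of the 2 transcripts with 0 counts in the hypothalamus library are no bounds.

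The 3 members below every PN2 library at PN7 were ENSRNOT00000090420.1, ENSRNOT00000014404.3 and ENSRNOT00000031762.1 (named after their values were seen). ENSRNOT00000014404.3 held 17.9, 11.2, 18.0 and 22.0 CPM at PN2 and 3.81, 1.97 and 10.6 CPM at PN7 (edgeR adjusted p = 0.09176). ENSRNOT00000031762.1 held 15.8, 17.6, 25.3 and 23.3 CPM at PN2, against 9.40, 9.17 and 8.62 CPM at PN7 (edgeR adjusted p = 0.06128). None of the 3 passed the test, and the adjusted p of ENSRNOT00000090420.1 was 0.541 with edgeR.

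In hypothalamus, with 1 library at PN7 and 2 at PN2, no member passed edgeR's test for age (0 higher, 0 lower; 1.55% and 1.19% of all transcripts were called). At an unadjusted p under 0.05 there was 1 higher and 4 lower. DESeq2 called 0 higher and 3 lower, and limma voom 0 and 0. The PN7 library was above both PN2 libraries for 6 members (37.8% of all transcripts) and below both for 9 (14.9% of all). The PN2 libraries were high by choice, which favours falls here as well, and 12 members met the limits in replicate 1 only and 5 in replicate 2 only. These counts are therefore not independent of the choice. Shares over all transcripts were not taken for the unadjusted, DESeq2 and limma voom counts. The lowest adjusted p, 0.06109 from edgeR, was that of ENSRNOT00000017339.7, which held 122 and 133 CPM at PN2 and 34.6 CPM at PN7. Without hypothalamus PN2 replicate 1, 2 members were called higher and 2 lower.

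Whether the age difference itself differed between the regions was tested as an interaction. None of the members passed (0 higher, 0 lower in edgeR, beside 1.04% and 1.57% of all transcripts). At an unadjusted p under 0.05 there were 4 higher and 1 lower. DESeq2 called 3 higher and 0 lower, and limma voom 1 and 0. Shares over all transcripts were not taken for the unadjusted, DESeq2 and limma voom counts. The interaction is the change in hippocampus minus that in hypothalamus. It uses the PN2 libraries of both regions, 4 and 2, which made the choice, so its direction over the members is not independent of it. ENSRNOT00000020656.5 had the lowest adjusted p, with 3.31 ± 0.89 on the log2 scale (SE; edgeR adjusted p = 0.05843). It was followed by ENSRNOT00000017339.7, with 2.29 ± 0.64 (SE; edgeR adjusted p = 0.07005). Without hypothalamus PN2 replicate 1, 3 members were called higher and 2 lower.

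Among the members, which hippocampus library of PN7 was highest went with the imbalance in hypothalamus at PN2. This was not a planned comparison and is given without a test. Of the 9 with replicate 1 at least 4 times replicate 2 in hypothalamus, 8 were highest in replicate 3 among the hippocampus libraries of PN7, and of the other 21 members 6 were. Over the 474 transcripts with at least 10 CPM in both regions and the same imbalance, the share with replicate 3 highest was 45.8%, and over the other 7655 it was 29.3%. ENSRNOT00000014404.3 is an example, named after its values were seen. It held 61.0 and 5.17 CPM in hypothalamus at PN2 and 3.81, 1.97 and 10.6 CPM in hippocampus at PN7. Hypothalamus replicate 1 and hippocampus PN7 replicate 3 also had counts for more transcripts, 16231 and 17938, than the other libraries of their groups, with 13403 and with 17202 and 16581. The part of these library differences in the pattern was not tested. The imbalance in hypothalamus is not independent of the choice, and the 9 include the 2 members with identical values.

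Some of the estimated counts were not whole. In 14 of the 30 (46.7%) every library's value was whole to within 1e-06, and among all 8129 transcripts with at least 10 CPM in both regions this share was 56.7%. Fractional values arise where the counting divides reads among transcripts that share sequence. ENSRNOT00000017339.7, ENSRNOT00000020656.5 and ENSRNOT00000019222.3 had whole values in all 19 libraries. The other 16 members had fractional values in at least 1 library, and for all 16 a shift between transcripts that share reads cannot be told from a change. Among them, ENSRNOT00000082592.1 had whole values in 0 libraries, ENSRNOT00000004280.5 and ENSRNOT00000086710.1 in 7, ENSRNOT00000083183.1 in 9, ENSRNOT00000090420.1 in 10 and ENSRNOT00000082600.1 in 14.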

How the data were processed

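The authors deposited an estimated count per transcript and library, without scaling. The submitters' processing notes name kallisto and the rat build Rnor_6.0; the kallisto version is not given in the sources. Per the labels' protocols, SMART-Seq v4 cDNA and Nextera XT libraries were made. Levels are CPM over the column sum. For tests, counts were rounded and fitted with edgeR 4.0.16 (R 4.3.3): filterByExpr kept 20521 transcripts, all 30 members among them and also without the brain libraries of PN2, with TMM scaling and 1 quasi-likelihood fit of all 19 libraries. Adjusted p-values are Benjamini-Hochberg values over all transcripts tested, with calls below 0.05. A standard error is the fold change divided by the square root of F. The test was tried on simulated counts.

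The members and comparisons were chosen with earlier results of these data known. The gene lists written for this work could not be matched and were not used. The rule for named members took at most 2 per direction and comparison, by fitted size, among calls whose higher group averaged at least 10 CPM and whose libraries did not overlap. It added the 2 highest in brain, the most and least even in hippocampus, and the 2 nearest the fold limit on each side; no member had 0 counts in all outside libraries. Alternatives were RLE factors, DESeq2 1.42.0, limma 3.58.1 voom, other filters, fewer libraries, a replicate block, merging of identical transcripts and thinning. Figures were drawn with matplotlib 3.10.9.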

Additional observations from a re-analysis of the deposited data

Results flagged for a closer look

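Libraries were examined in 39 sets: 12 named members and the summed level, each in bone marrow, skin and hippocampus at PN2. In 5 sets the gap of a library to the others exceeded Dixon's critical value. For normally distributed values that were not picked beforehand, about 1 set in 20 would exceed it. The named members were picked by their values, so the 5 are not read against that rate. Bone marrow replicate 4 stood apart for ENSRNOT00000082592.1, at 50.7 CPM with the next library at 17.9 CPM, and for ENSRNOT00000020656.5, at 1.86 CPM with the next at 0.762 CPM. For ENSRNOT00000071795.1, hippocampus PN2 replicate 2 held 38.4 CPM with the next library at 1.78 CPM, and skin replicate 1 held 0.306 CPM with 0 in the other skin libraries. This member was named for having the least even hippocampus libraries, so its flag there followed from the naming. Its skin flag followed from having counts in a single skin library. Skin replicate 2 held 2.31 CPM of ENSRNOT00000086710.1, with the next library at 0.202 CPM. Without bone marrow replicate 4 the rule chose 32 transcripts, all 30 members among them, and without hippocampus replicate 2 it chose 28, all among the 30.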

How the results depend on the processing

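The number chosen depended on the limits: 11 with a 10-fold limit, 52 with a 3-fold limit, 18 with a minimum of 20 CPM and 11 when every brain library of PN2 had to meet the limits. Leaving out 1 library gave 22 to 35. TMM-scaled CPM gave 29, group medians 33 and a 5 CPM minimum 35. The counts at PN7 within the limits ran from 21 to 26 in hippocampus and from 12 to 13 in hypothalamus under alternatives added after seeing the data. Hippocampus PN7 against skin gave 23 to 25 members higher and against bone marrow 25 to 28, with 0 lower, in all alternatives run; leaving out 1 library gave 23 to 24 and 25 to 28.

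Counts of members called higher and lower for hippocampus over hypothalamus at PN7 (2 and 0) were 5 and 1 with DESeq2, 6 and 3 with limma voom, 4 and 1 with thinning, 7 and 2 without the libraries numbered 4 and 5, 9 and 3 when fitted on these groups alone, and 2 and 1 under the filter of 5 CPM in 3 libraries. Without 1 library they were 2 and 0. For age in hippocampus (2 and 0) they were 9 and 3 with limma voom, 6 and 0 without the libraries numbered 4 and 5, 8 and 2 with only the groups compared, 3 and 2 with DESeq2, 2 and 1 with the stricter filter and with thinning. Without 1 library they were 1 to 2 higher and 0 to 1 lower. For age in hypothalamus (0 and 0) they were 0 and 3 with DESeq2 and without the libraries numbered 4 and 5, 0 and 2 with thinning, and without 1 library 0 to 2 higher and 1 to 2 lower. The interaction (0 and 0) gave 3 and 0 with DESeq2, 1 and 0 with limma voom, 2 and 0 with thinning, 4 and 0 without the libraries numbered 4 and 5, 3 and 1 with only the groups compared, and without 1 library 0 to 3 and 0 to 2. Shares over all transcripts were not taken for any alternative fit, so its counts are not read against a background. The cause of these differences was not tested.

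The shared replicate numbers did not meet the condition for pairing, a correlation of the deviations over 0.1 in every same-numbered pair. Between skin and hippocampus PN2, numbers 1, 2 and 3 correlated at 0.0305, 0.0187 and 0.0728. Hippocampus PN2 and PN7, which cannot share animals, gave 0.0376, 0.0239 and -0.118. Number 4 did correlate, at 0.164 between bone marrow and skin, 0.270 between bone marrow and hippocampus PN2 and 0.208 between skin and hippocampus PN2. Number 1 of bone marrow and skin correlated at 0.141. Whether libraries numbered 4 shared animals or handling was not tested. With the replicate block, 23 members were higher than skin, 26 higher than bone marrow, 2 higher than hypothalamus at PN7 and 3 higher than at PN2, with 1 lower for age in hypothalamus and 1 higher for the interaction. For named members, 124 of 130 alternative values kept direction and call, 6 lost the call and 0 reversed. The small hypothalamus libraries of PN2 limit what can be told there: 3 counts over both correspond to 0.270 CPM.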
